A study of Mus musculus with 288 samples.

Results

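The 9 genes described here encode enzymes and secreted or regulatory proteins of mitochondrial fatty acid oxidation: Cpt1a, Cpt1b, Cpt2, Acadm, Acadl, Acadvl, Hadha, Pdk4 and Angptl4. They were chosen by name from the 35904 genes measured, with no threshold on their values. RNA of liver, lung, kidney, muscle, heart and cerebellum was sequenced, with 24 libraries for each of the 12 groups made by 6 tissues and 2 treatments. All mice were male wild-type C57BL/6J animals of 8 weeks. The normoxia group stayed in room air, whereas the IH group went through intermittent hypoxia, with inhaled oxygen cycling between 21% and 8% in the light phase, for 7 days. Both groups then spent 2 days in constant darkness in room air, so the IH mice were no longer hypoxic when tissues were taken on the second of those days, at 8 times 3 hours apart, from 3 mice per time point and treatment. Times are given as labelled, from 1:30 to 22:30. Whole tissues were ground, which mixes all their cell types, and no group held a genetic manipulation. The values are in TPM, the share of a library's transcripts that a gene accounts for, corrected for transcript length, and without counts the depth of each library is unknown.

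Long-chain fatty acids enter mitochondria as carnitine esters. Carnitine palmitoyltransferase 1 on the outer membrane makes the ester and is the step that malonyl-CoA inhibits, with Cpt1a the form of liver and kidney and Cpt1b the form of heart and skeletal muscle. Cpt2 on the inner membrane turns the ester back into acyl-CoA. The acyl-CoA dehydrogenases Acadvl, Acadl and Acadm then open the oxidation spiral for very long, long and medium chains, and Hadha, the alpha subunit of the mitochondrial trifunctional protein, carries out the next hydration and dehydrogenation steps. Pdk4 phosphorylates and switches off pyruvate dehydrogenase, which spares glucose while fat is burned. Angptl4 is a secreted inhibitor of lipoprotein lipase, the enzyme that releases fatty acids from circulating triglycerides. Fasting raises Cpt1a, Pdk4 and Angptl4 in several tissues through nuclear receptors of the PPAR family.

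On the mouse genome GRCm38 (GENCODE vM21), the genes lie on 9 different chromosomes. Cpt1a is at chr19:3322334-3385733 on the plus strand. The other 8 are on the minus strand: Cpt1b at chr15:89416405-89425863, Cpt2 at chr4:107903981-107923610, Acadm at chr3:153922357-153944632, Acadl at chr1:66830839-66863277, Acadvl at chr11:70010183-70015411, Hadha at chr5:30118304-30155162, Pdk4 at chr6:5483351-5496309 and Angptl4 at chr17:33773750-33781830. RefSeq promoter windows of build GRCm38.p6, covering the 250 bases before the RefSeq transcript start, matched 7 of the 9 genes, all but Cpt1b and Angptl4. For Cpt1a that start lies inside the GENCODE span. Motifs were searched in all 250 bases, in these genes and in every other promoter. AGGTCA, the core letters that PPAR and related nuclear receptors read, stood on either strand in 3 of the 7 windows (Cpt1a, Acadm and Acadvl) and in 14.02% of 32851 promoters of the same length. The DR1 element, which repeats this core after 1 base and so contains it, was in none of the 7 and in 0.0335% of all promoters. ACGTG, the core of a hypoxia response element, was in Acadvl alone and in 16.6% of all promoters. CACGTG, the clock factors' E-box, which contains ACGTG, was in none of the 7 and in 6.02% of all, and TTATGTAA, the letters of a D-box, was in none and in 0.819%. A match is a run of letters only, and no match says only that these letters are not in this window. The windows below belong to the carnitine step that fell in liver and rose in heart (Cpt1a, chr19:3323051-3323284, plus strand), to the only gene with both kinds of match (Acadvl, chr11:70015429-70015678, minus strand) and to the gene with the widest daily swing (Pdk4, chr6:5496310-5496528, minus strand). They run 5′ to 3′ in the direction of the gene, and where GENCODE exons cover part of a window (Cpt1a and Pdk4) only the stretch before them is printed. Capitals mark the AGGTCA core and the ACGTG core, or their reverse complements, which lie 94 bases before the RefSeq start in Cpt1a and 87 and 59 bases before it in Acadvl. Pdk4 has none.
Cpt1a: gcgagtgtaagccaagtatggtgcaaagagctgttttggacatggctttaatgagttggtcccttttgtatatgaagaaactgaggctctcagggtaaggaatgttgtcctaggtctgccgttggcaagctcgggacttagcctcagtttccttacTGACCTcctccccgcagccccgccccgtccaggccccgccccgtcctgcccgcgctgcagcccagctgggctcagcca
Acadvl: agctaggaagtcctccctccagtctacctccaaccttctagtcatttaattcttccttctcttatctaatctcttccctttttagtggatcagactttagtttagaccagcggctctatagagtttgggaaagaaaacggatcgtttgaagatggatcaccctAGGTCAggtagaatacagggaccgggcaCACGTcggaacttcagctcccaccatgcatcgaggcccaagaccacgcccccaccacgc
Pdk4: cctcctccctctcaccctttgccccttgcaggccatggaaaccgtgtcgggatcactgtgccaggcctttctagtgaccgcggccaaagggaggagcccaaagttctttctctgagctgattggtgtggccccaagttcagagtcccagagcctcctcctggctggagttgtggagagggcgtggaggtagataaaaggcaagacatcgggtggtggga

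Each of the 9 genes had a mean of at least 1 TPM in all 6 tissues, the level needed for testing, although Cpt1b reached it in liver only through 1 library. In normoxia the carnitine palmitoyltransferase 1 forms divided the tissues. Cpt1a was highest in kidney, at a median of 103 TPM over 24 libraries (range 64.5 to 180.3), followed by liver at 58.7 (28.8 to 141) and lung at 35.7 (18.7 to 62.8). It was 9.17 in heart (4.60 to 17.7), 6.81 in cerebellum (4.41 to 11.7) and 6.13 in muscle (3.99 to 10.7). In this order only lung and heart were separated, with no library shared between their ranges. Cpt1b ran the other way, at a median of 97.2 TPM in heart (71.1 to 147) and 80.8 in muscle (57.9 to 118), and 13.1 in kidney (9.15 to 18.4). It was 7.27 in cerebellum (1.87 to 21.2), 2.07 in lung (1.08 to 3.58) and 0.682 in liver (0.342 to 1.67). Heart and muscle overlapped each other and neither overlapped kidney. The median of Cpt1b over Cpt1a was 14.1 in muscle, 11.8 in heart and 1.14 in cerebellum, whereas Cpt1a over Cpt1b was 7.95 in kidney, 19.3 in lung and 87.5 in liver.

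**Figure D1:**
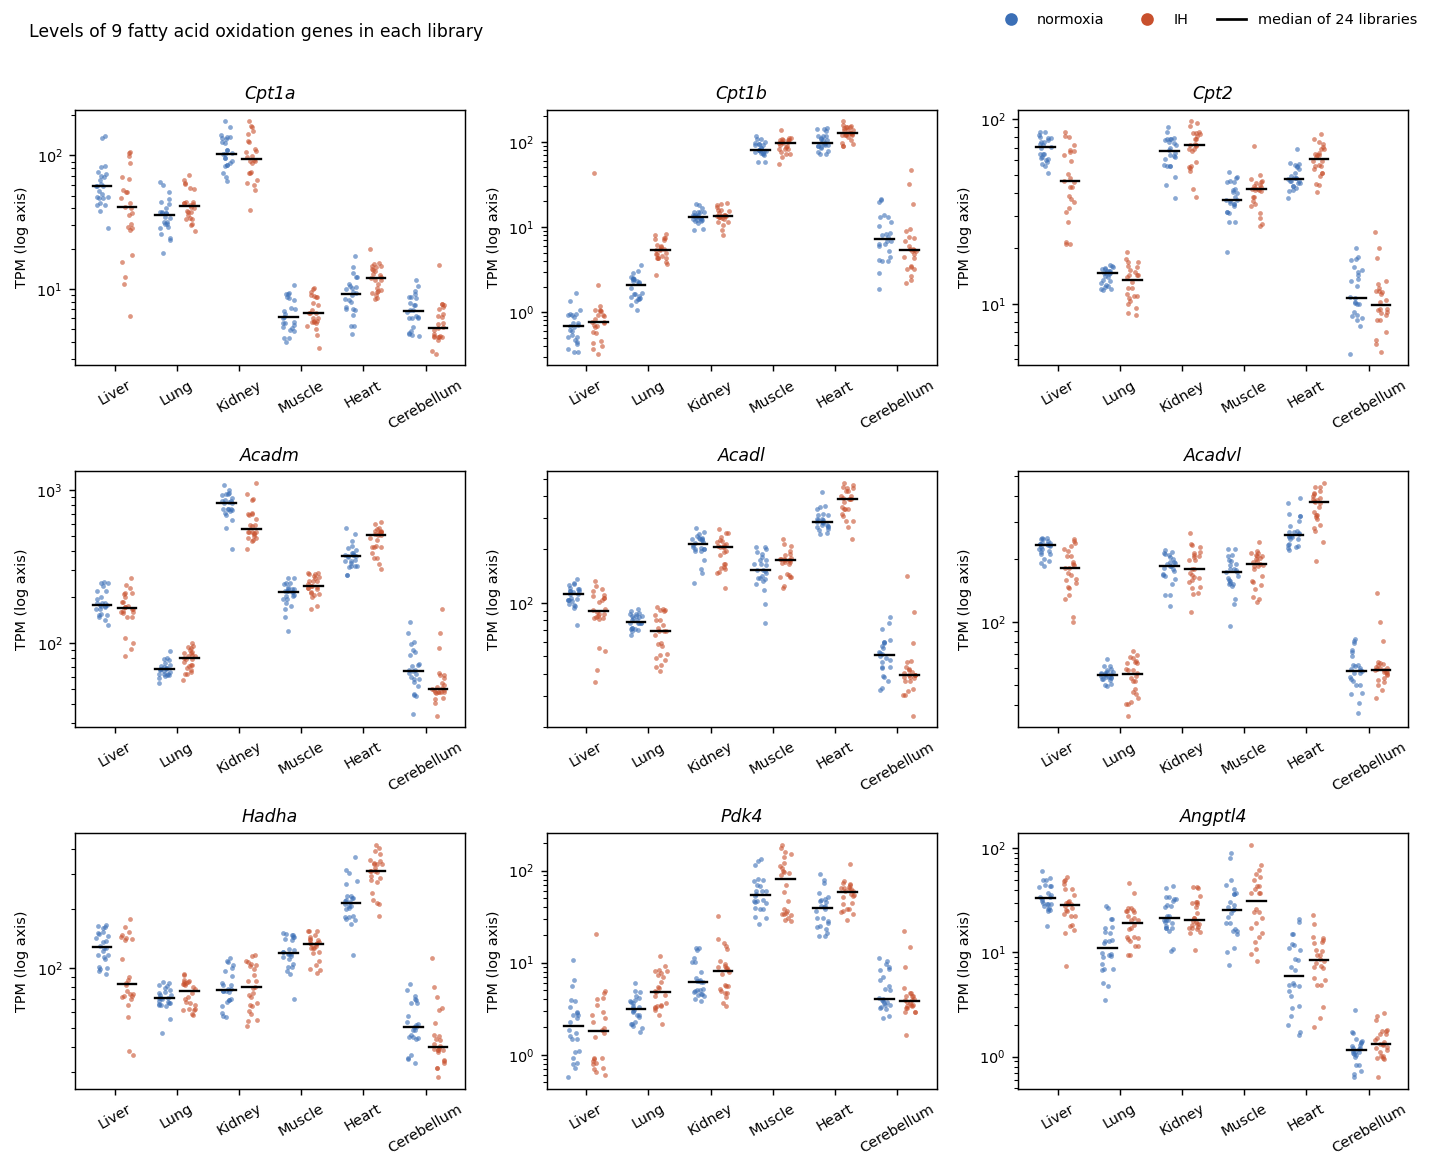
Levels of the 9 genes in TPM on a log axis, 1 point per library, with normoxia in blue, IH in orange and a black line at the median of 24 libraries. Cpt1b is at medians of 97.2 and 80.8 TPM in heart and muscle in normoxia, Cpt1a at 103 in kidney, Acadm at 828 in kidney, and Pdk4 is highest in muscle and heart.

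Cpt2, which every tissue needs for the second carnitine step, differed less between tissues. Its normoxia medians were 70.1 TPM in liver, 66.8 in kidney, 47.4 in heart, 36.5 in muscle, 14.6 in lung and 10.8 in cerebellum, and only muscle and lung were neighbours without overlap. Among the dehydrogenases, Acadm had a median of 828 TPM in kidney (range 416 to 1080.4), 369 in heart, 217 in muscle, 177 in liver, 67.7 in lung and 65.8 in cerebellum. Heart was separated from muscle, and liver from lung, with no overlap. Acadl was 285 TPM in heart, 214 in kidney, 153 in muscle, 112 in liver, 78.4 in lung and 51.1 in cerebellum, and every pair of neighbours overlapped. Acadvl was 261 TPM in heart, 232 in liver, 185 in kidney, 172 in muscle, 58.2 in cerebellum and 55.8 in lung, with a gap between muscle and cerebellum alone. For Hadha the medians were 213 TPM in heart, 128 in liver, 119 in muscle, 77.5 in kidney, 70.7 in lung and 50.5 in cerebellum, again with overlap at each step. Pdk4 was concentrated in striated muscle, with 54.1 TPM in muscle and 39.6 in heart, against 6.20 in kidney, 4.06 in cerebellum, 3.13 in lung and 2.06 in liver. No heart library was as low as the highest kidney library. Angptl4 had 33.2 TPM in liver, 25.7 in muscle, 21.5 in kidney, 11.04 in lung, 5.93 in heart and 1.15 in cerebellum, and all neighbours overlapped.

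Across the 96 means of tissue, treatment and time point, Cpt1b and Pdk4 had the most similar levels of any pair of the 9, with Pearson r = 0.94, and Cpt2 and Acadvl came next with r = 0.93. Cpt1a and Pdk4 went in opposite ways, with r = -0.52. These points share libraries, mice and tissues, and the values are a description. Among 18126 genes, the pattern nearest to Cpt1b was that of Perm1 (r = 0.98), a muscle regulator of oxidative metabolism, followed by the muscle ubiquitin ligase Trim63 and the sarcomere protein gene Myom2. Myom2 was also nearest to Pdk4 (r = 0.96). Closest to Cpt2 were other oxidation genes, the short-chain dehydrogenase Acads (r = 0.98), Decr1 and Etfa, and closest to Acadvl were Etfdh (r = 0.96), Etfa and Decr1, of which Etfa and Etfdh carry electrons from the dehydrogenases to the respiratory chain. Acadm was nearest to Sod2 (r = 0.98), the mitochondrial superoxide dismutase. Further top matches were mt-Nd5 for Acadl (r = 0.94), Gm13340 for Hadha (r = 0.92) and Acp5 for Angptl4 (r = 0.93).

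In each tissue the summed markers of its main cell type were high in the typical library. In cerebellum the hepatocyte list (Alb, Apoa2, Ttr, Fgb, Serpina1c and Cyp2e1) also had a median sum of 3047 TPM in normoxia and 2406 after IH. Cerebellum neuron markers had 3233 and 3628 TPM there. The hepatocyte sum was not split by gene, so it does not show that hepatocyte RNA was present. Single libraries stood apart. In liver, the IH library of replicate 2 at 13:30 had 63.3% of its TPM in 1 transcript, Gm19220, with a hepatocyte marker sum of 1414 TPM against at least 60589 in every normoxia library and a cardiomyocyte sum of 5766. The cerebellum library after IH of replicate 3 at 1:30 had 45.4% in 1 transcript and a cardiomyocyte sum of 6497 TPM. In heart, the normoxia library of replicate 3 at 7:30 had the lowest sum of cardiomyocyte markers of its group, 9277 TPM against a median of 16575, with 1562 TPM of lung epithelium markers against a median of 1.03, and the lung library after IH of replicate 2 at 1:30 had the lowest lung epithelium sum, 34723 TPM against a median of 147679. In heart the number of genes detected did not overlap between treatments (22988 to 28331 in normoxia and 20316 to 22793 after IH). Results that rest on these libraries are given with and without them. Other libraries also held markers of another tissue and were not left out singly. The highest lung epithelium sums in heart were 2002 TPM, in another normoxia library, and 641 after IH. In cerebellum, cardiomyocyte sums were 3824 TPM after IH in replicate 1 at 10:30 and 2845 in normoxia in replicate 1 at 1:30. Same-numbered replicates are separate mice in the 2 treatments, and values within a number compare 8 libraries with 8. In such a comparison of number 3 alone, 1 of 11334 genes passed in liver and 0 of 14892 in cerebellum.

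The first comparison asked whether mean 24-hour expression differed after IH. Higher values were found for 7 of the 9 genes in heart, where none was lower. The heart count was 2, 4 and 3 without replicate numbers 1, 2 and 3, and 0 with the genes detected per library in the fit. Of all 12779 heart genes, 3050, 4733 and 5673 passed without these numbers and 257 with that term, against 5780 in the main fit. In lung 3 were higher and 4 lower, in liver 4 were lower (0 without number 1 or without number 2), in kidney 1 was lower, and none passed in muscle or cerebellum. Without number 1 and without number 2, 62 and 138 of all 11334 liver genes were lower, against 1508 in the main fit. The threshold was an adjusted p of 0.05 over all genes tested in a tissue. At an unadjusted p of 0.05 the counts were 8 in heart, 8 in lung, 4 in liver, 1 in kidney, 0 in muscle and 1 in cerebellum. Of all genes, 6645 of 12779 met that level in heart, 11196 of 15426 in lung and 4195 of 11334 in liver. In kidney 4264 of 12902 did, in muscle 3063 of 12824 and in cerebellum 4514 of 14892. At the adjusted threshold, over all genes tested, heart had 28% higher and 17.3% lower, lung 28.9% and 41.5%, liver 10.9% and 13.3%, kidney 8.25% and 11.5%, muscle 5.48% and 4.89%, and cerebellum 9.76% and 5.24%. The share of the 9 that was higher in heart and lower in liver was thus above these levels, and in lung each direction was close to them. Only Cpt1b in lung also passed 1.5-fold, with 9.09% of lung genes higher to that extent. The share past 1.5-fold in either direction was 3.65% in liver, 0.783% in kidney, 0.374% in muscle, 2.95% in heart and 2.64% in cerebellum, where none of the 9 reached it. In whole tissue, fewer cells of a type and less RNA per cell cannot be told apart.

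**Figure D2:**
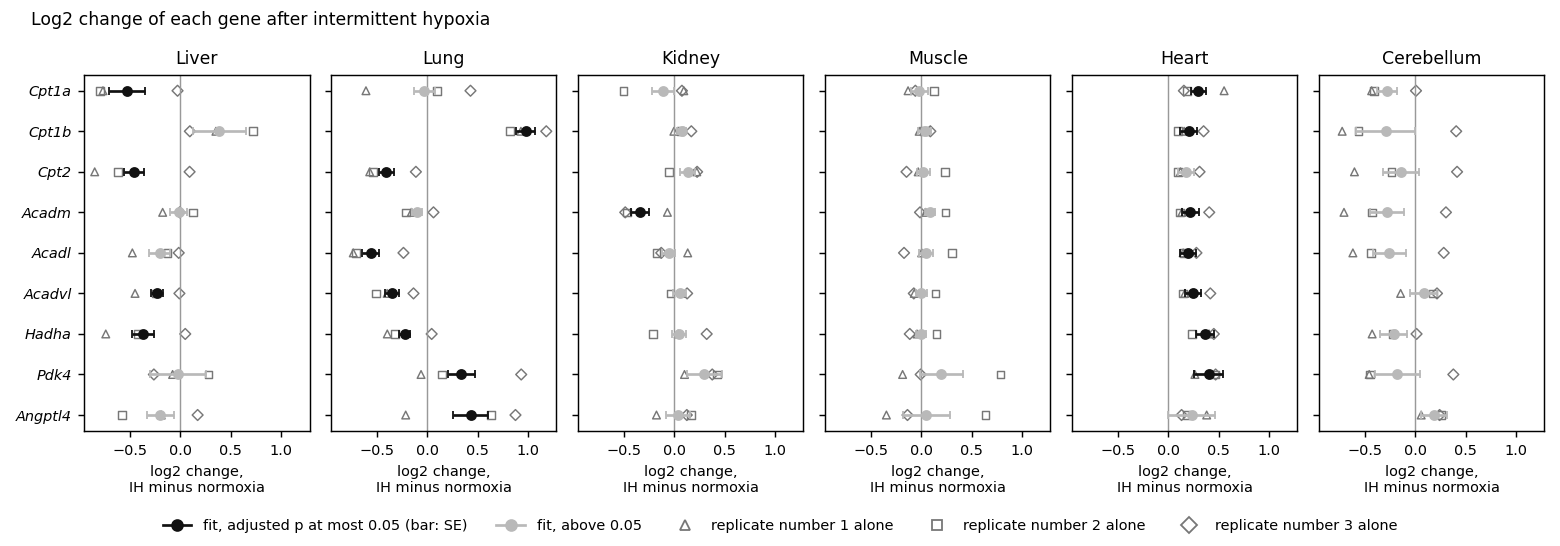
Log2 change (IH minus normoxia) of each gene per tissue, as fitted over 48 libraries (circle, bar ±SE; black where adjusted p is at most 0.05) and within each replicate number alone (open symbols). All heart symbols lie right of 0, liver symbols lie left for replicate numbers 1 and 2 and near 0 for 3 for the genes that passed, and in cerebellum number 3 lies to the right of the other numbers for most genes.

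Scaling mattered for these calls. TPM was divided by 1 size factor per library, and in lung the median size factor was 0.913 in normoxia and 1.12 after IH. The median log2 change of all lung genes was -0.08 with the scaling and 0.21 without it, that of liver -0.01 and -0.12, and that of heart 0.04 and 0.15. On TPM as deposited, 6 of the 9 passed in lung, 5 higher and 1 lower, in place of 3 and 4. Of all 15426 lung genes tested, 8478 were higher and 1655 lower in that setting, close to the shares of the 9. Cpt1a, Acadm and Hadha changed sign there. In liver 5 passed, all lower, and in heart 8, all higher. Over all genes in that setting, 2059 of 11334 were lower in liver and 4788 of 12779 higher in heart.

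Carnitine palmitoyltransferase 1 changed in opposite ways in liver and heart. In liver, Cpt1a had a lowest, median and highest value of 28.8, 58.7 and 141 TPM in normoxia and 6.28, 40.8 and 107 after IH. The groups overlapped, with 7 IH libraries below every normoxia library. The change was -0.53 ± 0.18 (log2, SE), a fall to 0.692-fold with adjusted p = 0.028, and the mean was lower at all 8 time points. Within replicate numbers it was -0.77, -0.79 and -0.03, so the third number held almost none of it. With the cardiomyocyte marker term described below it was -0.34 (adjusted p = 0.21). In heart, Cpt1a went from 4.60, 9.17 and 17.7 TPM to 8.40, 12.1 and 19.9. No IH library lay in the lowest part of the normoxia range, where 11 normoxia libraries were found. The change was 0.30 ± 0.08 (1.23-fold, adjusted p = 0.0014), with a higher mean at 8 of 8 time points and 0.55, 0.18 and 0.15 within numbers. The change did not pass in kidney (-0.11, adjusted p = 0.52), muscle (-0.02, adjusted p = 0.92) or cerebellum (-0.28, adjusted p = 0.055). Lung gave -0.03 (adjusted p = 0.81), but 0.27 (adjusted p = 0.029) on TPM as deposited, and ran from -0.61 to 0.43 within the numbers.

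Cpt1b gave the largest change of the set, in lung, a tissue where it is scarce. Its lowest, median and highest values were 1.08, 2.07 and 3.58 TPM in normoxia and 2.76, 5.39 and 8.24 after IH. Nearly all libraries separated: 23 of 24 IH libraries were above the highest normoxia library. The change was 0.98 ± 0.10 (log2, SE; 1.97-fold, adjusted p = 3.3e-12), with 0.93, 0.82 and 1.18 within the replicate numbers and a higher mean at 8 of 8 time points. It was 1.24 on TPM as deposited and 0.96 without the library that stood apart. In heart, Cpt1b went from 71.1, 97.2 and 147 TPM to 88.4, 125 and 174. The ranges overlapped, with 6 IH libraries above all normoxia libraries and 6 normoxia libraries below all IH libraries. That change was 0.20 ± 0.08 (1.15-fold, adjusted p = 0.042) and did not pass without the normoxia library of replicate 3 at 7:30 (0.15, adjusted p = 0.060). Elsewhere Cpt1b did not pass, with 0.07 in kidney (adjusted p = 0.25), 0.03 in muscle (adjusted p = 0.82) and -0.29 in cerebellum (adjusted p = 0.53). The liver value of 0.39 (adjusted p = 0.28) was 0.14 without the library at 13:30, in which Cpt1b was 42.7 TPM against at most 1.67 in normoxia.

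Since Cpt1b is the heart form, it was set beside 6 cardiomyocyte markers (Myh6, Tnnt2, Nppa, Myl7, Actc1 and Myl4). None of the 6 was at a median of 0 in any group. In lung their summed level had a lowest, median and highest of 262, 453 and 998 TPM in normoxia and 369.8, 805 and 1160.5 after IH, so it was higher after IH too. Per 1000 TPM of these markers, Cpt1b had a median of 4.23 TPM in lung in normoxia and 6.86 after IH, 6.48 and 6.79 in heart, and 10.6 and 13.1 in cerebellum. With the log2 marker sum as a further term, chosen after seeing the data, the lung change of Cpt1b was 0.76 ± 0.11 (adjusted p = 6.1e-08). Across cerebellum libraries Cpt1b followed the markers closely, with r = 0.93 in normoxia and 0.85 after IH (n = 24 each), and in lung with r = 0.74 and 0.13. These correlations are descriptions over libraries that also share depth and composition.

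**Figure D3:**
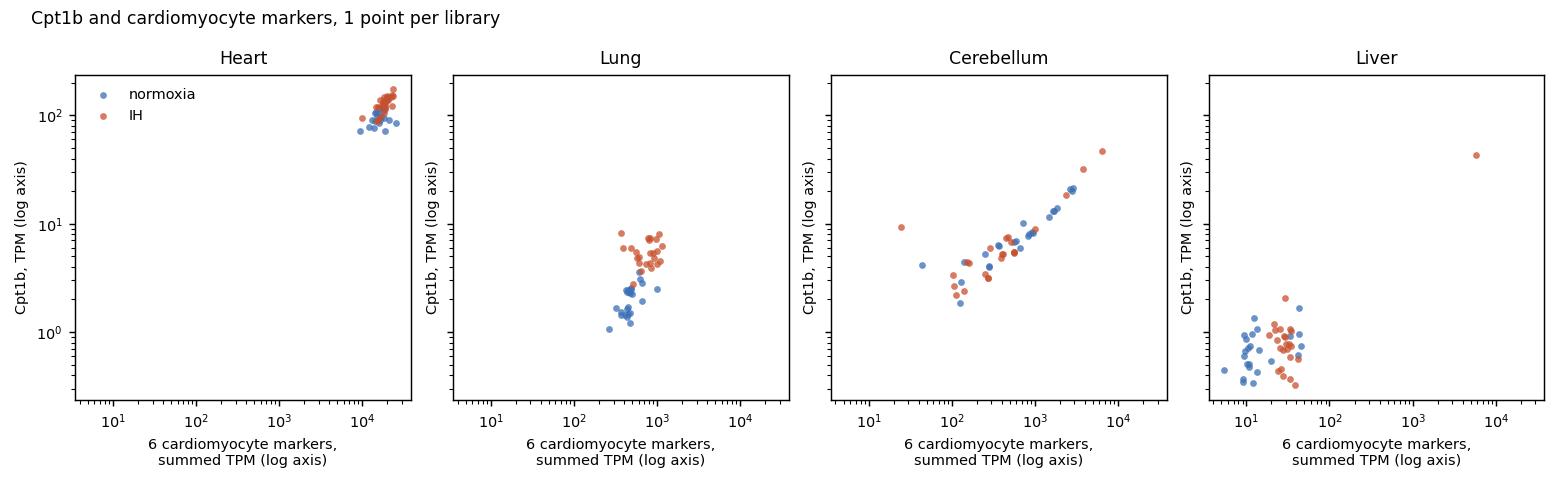
Cpt1b against the summed TPM of 6 cardiomyocyte markers, both on log axes, 1 point per library (normoxia blue, IH orange), with the same axes in heart, lung, cerebellum and liver. In lung the IH points lie above the normoxia points, with medians of 5.39 and 2.07 TPM, cerebellum forms 1 line, and 1 liver library sits apart at 42.7 TPM of Cpt1b.

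A second limit on Cpt1b is its neighbour. Chkb, a choline kinase gene at chr15:89426360-89429908, ends just before Cpt1b starts, and the read-through gene Gm44502 (chr15:89416405-89429696) spans both, so quantification could split reads among them and the Cpt1b level is uncertain to that extent. Chkb was chosen for its position after values were seen. It rose in lung from a median of 28.4 to 48.8 TPM (0.50 ± 0.12, adjusted p = 2.7e-04) and fell in heart from 35.6 to 29.4 (-0.43 ± 0.08, adjusted p = 6.0e-05), where Cpt1b rose. Gm44502 stayed under 1 TPM at the median in every group, from 0.220 to 0.374 in lung.

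Cpt2, the inner-membrane step, was lower in liver and lung. Its liver values ran from 51.2 through 70.1 to 84.9 TPM in normoxia and from 21.1 through 45.9 to 85.0 after IH. Although the ranges overlapped, 15 of 24 IH libraries were below the lowest normoxia library. The change was -0.46 ± 0.09 (0.727-fold, adjusted p = 3.9e-04), with -0.85, -0.62 and 0.09 within the numbers. In lung, Cpt2 went from 11.9, 14.6 and 16.1 TPM to 8.65, 13.51 and 19.1. With 9 IH libraries below and 4 above the normoxia range, the IH group spread to both sides. The change there was -0.41 ± 0.07 (adjusted p = 4.3e-06), but on TPM as deposited it was -0.12 (adjusted p = 0.14). In heart, the value of 0.18 ± 0.08 missed the threshold (adjusted p = 0.057), and kidney, muscle and cerebellum gave 0.13, 0.02 and -0.14 (adjusted p from 0.22 to 0.90).

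The dehydrogenases did not move as a block. Acadvl, the first enzyme for the longest chains, fell in liver from 186, 232 and 252 TPM to 100.1, 181 and 249.7, with 13 IH libraries below the normoxia range. That change was -0.23 ± 0.06 (0.851-fold, adjusted p = 0.0032), and -0.45, -0.24 and -0.01 within the numbers. In lung its medians were 55.8 and 56.0 TPM, with ranges of 49.2 to 66.0 and 35.5 to 72.4, so the IH range enclosed the normoxia range. The scaled change was -0.35 ± 0.07 (adjusted p = 1.0e-05) and the unscaled one -0.05 (adjusted p = 0.51). In heart, Acadvl rose from 219.8, 261 and 389.6 TPM to 196, 373 and 462. As in the other tissues the ranges overlapped, with 8 IH libraries above all of normoxia. This was a change of 0.24 ± 0.08 (1.18-fold, adjusted p = 0.010), and 0.16, 0.15 and 0.42 within the numbers. Kidney, muscle and cerebellum gave 0.05, -0.00 and 0.08 (adjusted p from 0.58 to 0.99).

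Acadl, for long chains, fell in lung and rose in heart. Lung values were 66.0, 78.4 and 92.8 TPM in normoxia and 41.4, 69.6 and 94.8 after IH. The lowest 10 IH libraries were below the normoxia range. The lung change was -0.56 ± 0.09 (0.678-fold, adjusted p = 1.4e-07) and kept its direction within each number (-0.73, -0.71 and -0.24). It was the only lung decrease among the 9 that also passed on TPM as deposited (-0.26, adjusted p = 0.0044). Heart went from 244, 285 and 423 TPM to 229, 384 and 472, with 7 IH libraries above the normoxia range. There the change was 0.19 ± 0.08 (1.14-fold, adjusted p = 0.035), or 0.15 (adjusted p = 0.053) without the normoxia library of replicate 3 at 7:30. In liver it was -0.21 (adjusted p = 0.14), which passed without the library at 13:30 (-0.27, adjusted p = 0.013) and with the marker term (-0.40, adjusted p = 0.0038). Kidney, muscle and cerebellum gave -0.06, 0.05 and -0.26 (adjusted p from 0.30 to 0.73).

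Acadm, for medium chains, was the only member that changed in kidney, the tissue where it is most abundant. Its kidney values were 416, 828 and 1080.4 TPM in normoxia and 411, 559.9 and 1116.5 after IH. The ranges were nearly the same, and the median moved within them. The change was -0.34 ± 0.09 (0.79-fold, adjusted p = 0.0049), with -0.07, -0.47 and -0.49 within the numbers, and without replicate 2 or 3 it did not pass. In heart, Acadm went from 277, 369 and 568 TPM to 306, 509 and 623. The groups overlapped widely, with 3 IH libraries above the normoxia range. The change was 0.22 ± 0.08 (1.16-fold, adjusted p = 0.026). In lung Acadm was -0.10 (adjusted p = 0.055) with the scaling, 0.20 (adjusted p = 0.0015) on TPM as deposited and -0.30 (adjusted p = 2.2e-08) with the cardiomyocyte marker term. Liver, muscle and cerebellum gave -0.02, 0.09 and -0.28 (adjusted p from 0.26 to 0.90).

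Hadha, the trifunctional protein's alpha subunit, followed the pattern of liver down and heart up. In liver it went from 93.7, 128 and 166 TPM to 36.2, 83.2 and 178. As many as 15 of 24 IH libraries were below the lowest normoxia library and 1 was above the highest. The change was -0.37 ± 0.11 (0.773-fold, adjusted p = 0.0098), with -0.74, -0.42 and 0.05 within the numbers. In heart it went from 116, 213 and 363 TPM to 184, 311 and 419.7. The ranges overlapped, with 6 normoxia libraries below every IH library. This was 0.36 ± 0.09 (1.29-fold, adjusted p = 7.6e-04) and 0.40, 0.24 and 0.45 within the numbers. In lung the scaled change was -0.23 ± 0.05 (adjusted p = 1.6e-04), whereas it was 0.08 (adjusted p = 0.25) on TPM as deposited. Kidney, muscle and cerebellum gave 0.05, -0.00 and -0.21 (adjusted p from 0.29 to 0.99).

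Pdk4, the brake on pyruvate oxidation, was higher in heart and lung. In heart its lowest, median and highest values were 19.3, 39.6 and 92.2 TPM in normoxia and 29.3, 57.9 and 117 after IH. The ranges overlapped, and 8 normoxia libraries were below every IH library. The change was 0.40 ± 0.14 (1.32-fold, adjusted p = 0.018), with a higher mean at 8 of 8 time points and 0.26, 0.46 and 0.47 within the numbers. In lung it went from 1.75, 3.13 and 5.97 TPM to 2.15, 4.82 and 11.9. Of the IH libraries, 9 were above the normoxia range. The lung change of 0.34 ± 0.14 (1.26-fold, adjusted p = 0.027) came mostly from 1 replicate number (-0.06, 0.15 and 0.93), and it was -0.01 (adjusted p = 0.97) with the cardiomyocyte marker term. Muscle, with the highest level, gave 0.20 ± 0.21 (adjusted p = 0.63), with medians of 54.1 and 80.3 TPM. Kidney, liver and cerebellum gave 0.30, -0.02 and -0.18 (adjusted p from 0.22 to 0.97).

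Angptl4, the lipoprotein lipase inhibitor, passed in lung alone. Its lung values were 3.51, 11.04 and 28.0 TPM in normoxia and 9.44, 19.3 and 46.3 after IH. While the ranges overlapped, 10 normoxia libraries were below every IH library. The change was 0.43 ± 0.18 (1.35-fold, adjusted p = 0.028), with a higher mean at 8 of 8 time points and -0.21, 0.63 and 0.87 within the numbers, and it was 0.28 (adjusted p = 0.26) with the marker term. Heart gave 0.23 ± 0.24 (adjusted p = 0.44), liver -0.20 (adjusted p = 0.30), cerebellum 0.19 (adjusted p = 0.33), muscle 0.05 (adjusted p = 0.93) and kidney 0.04 (adjusted p = 0.86).

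Other measures moved with these groups. In heart the summed adipocyte markers had a median of 193 TPM in normoxia and 369.96 after IH, and the brown adipocyte markers 31.8 and 68.2, with wide overlap in both (22.1 to 1397 and 22.2 to 1207 TPM for adipocytes). Cardiomyocyte markers in heart were 16575 and 18293 TPM at the median. Their part in the heart changes was not tested. When genes detected per library entered the fit, 0 of the 9 passed in heart (adjusted p from 0.59 to 0.99), and with ranges that do not overlap detection and the treatment cannot be told apart. Of all 12779 heart genes, 257 passed in that fit. In liver the hepatocyte sum had a median of 71325 TPM in normoxia and 50787 after IH. Sums of several other cell types were higher after IH. Kidney tubule markers went from a median of 3.85 to 90.4 TPM, with 41.5 in the lowest IH library and 121 in the highest normoxia library. Cardiomyocyte markers went from 11.5 to 29.1 TPM and erythroid markers from 1605 to 2561. Of these sums only that of the cardiomyocyte markers entered a liver fit, as the marker term. With it Cpt2, Acadl, Acadvl and Hadha passed, all lower, and Cpt1a did not (-0.34, adjusted p = 0.21). Of all 11334 liver genes, 1296 were lower in that fit. The part of the other sums in the liver changes was not tested. In cerebellum 4 passed, all lower (Cpt1a, Acadm, Acadl and Hadha), without the IH library of replicate 3 at 1:30, with changes from -0.31 to -0.39 on the log2 scale. In that fit 1521 of all 14892 cerebellum genes were lower and 2123 higher. With the marker term 2 others passed in cerebellum, both higher, Acadvl at 0.24 (adjusted p = 0.032) and Angptl4 at 0.29 (adjusted p = 0.037). Of all cerebellum genes, 1769 were higher with that term.

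Whether the response depended on the tissue was tested as an interaction over the 6 tissues. It passed for 7 of the 9 genes, while 88.3% of the 9876 genes tested passed, so most genes showed such a difference. Hadha had adjusted p = 4.5e-07, Acadvl 4.6e-06, Cpt2 7.7e-06, Acadl 1.1e-05, Cpt1b 5.6e-05, Cpt1a 1.1e-04 and Acadm 4.3e-04. Pdk4 (adjusted p = 0.31) and Angptl4 (adjusted p = 0.25) did not pass, and both passed on TPM as deposited, where all 9 did. Of all 9876 genes, 8397 passed in that setting. The fit treated the tissues' libraries as separate, and 1 mouse could have given several. Among the 15 pairs of tissues, liver and heart differed for 5 genes (Cpt1a, Cpt2, Acadl, Acadvl and Hadha), as did lung and heart (Cpt1b, Cpt2, Acadl, Acadvl and Hadha). Over all genes these pairs passed for 39.9% and 56.8%, so 5 of 9 (55.6%) was above that share for liver and heart and close to it for lung and heart. Of the 135 tests of the 9 genes over the 15 pairs, 42 passed (31.1%), against 36.2% over all genes and pairs. The liver change of Cpt1a differed from that of heart by -0.83 ± 0.17 (log2, SE) (adjusted p = 1.5e-05) and the lung change of Cpt1b from that of cerebellum by 1.27 ± 0.25 (adjusted p = 9.0e-06). No pair passed for Pdk4.

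The wider pathway was followed in lists of genes, to be read against the shares of all genes called in each tissue, which for heart were 28% higher and 17.3% lower and for lung 28.9% and 41.5%. Of 17 further genes of the carnitine shuttle and beta-oxidation, 6 (35.3%) were higher and 0 lower in heart. The largest were Acsl1, which activates long-chain fatty acids (92.7 to 149 TPM at the median, 0.51 ± 0.09, adjusted p = 1.4e-05), and the branched-chain dehydrogenase Acadsb (0.41). The list's median log2 change there was 0.13, against 0.04 for all genes. In lung 2 were higher and 14 (82.4%) lower, with a median of -0.33 against -0.08, led by Hadh (-0.59) and Echs1 (-0.49), which act in the same spiral as Hadha. On TPM as deposited the lung list had 5 higher and 5 lower, and the heart list 14 higher. In that setting 8478 of all 15426 lung genes were higher and 1655 lower, and 4788 of 12779 heart genes were higher. The deposited counts of the lists below are to be read against these numbers. Liver had 0 higher and 2 lower (11.8%, against 13.3% of all liver genes), Acsl1 (-0.44) and the thiolase gene Acaa2 (-0.37), with -0.05 against -0.01 at the median. Kidney had 1 higher, Hadhb (0.29), and 2 lower, of which Etfdh (-0.24) was the larger. Muscle had none in either direction, and in cerebellum Mlycd, whose product removes malonyl-CoA, was the single gene called (0.53).

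Among 15 genes known as fasting or PPAR targets, 13 were measured in liver and kidney and 12 in the other tissues. In liver 5 were lower (38.5%, against 13.3% of all genes) and 1 higher, with a median of -0.50 against -0.01. Fabp3, a fatty acid binding protein gene, was the higher one, going from a median of 1.83 to 4.79 TPM (1.31 ± 0.37, adjusted p = 0.0069), and the third replicate number held little of that change (0.21). Heart had 5 higher (41.7%) and 1 lower, with Bdh1, a ketone body enzyme, at 0.67 and Lpin1 at 0.49. Lung had 1 higher, the uncoupling protein gene Ucp3 (0.63), and 7 lower (58.3%), led by Acot1 (-0.53), but 4 higher and 1 lower on TPM as deposited. Kidney had Acot2 higher (0.25) and the fatty acid transporter gene Cd36 lower (-0.34), and none passed in muscle or cerebellum.

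Of 10 regulators, 5 (50%) were higher in heart and 0 lower, with Ppara, the receptor that fatty acids activate, going from a median of 5.02 to 8.46 TPM (0.53 ± 0.13, adjusted p = 0.0014) and its partner Rxra at 0.36. In liver Pparg was lower (-0.49) and Esrra higher (0.36). Lung had 4 higher (40%) and 3 lower (30%), including the coactivator gene Ppargc1b (0.53) and Foxo1 (-0.51), or 7 and 1 on TPM as deposited. In kidney Ppara was lower (-0.29) and Foxo1 higher (0.24). Muscle, where no member passed, had both PGC-1 coactivators higher (2 of 10, 20%, against 5.48% of all genes), Ppargc1b at 0.31 ± 0.08 (adjusted p = 0.0057) and Ppargc1a at 0.27 ± 0.06 (adjusted p = 0.0015), and cerebellum had Esrra (0.51) and Rxra (0.32) higher. Of 9 further genes of pyruvate dehydrogenase and its kinases and phosphatases, 7 (77.8%) were higher in heart, where Pdk4 rose, with the phosphatase Pdp2 (0.36) and the core subunit Dlat (0.35) first. Lung had 8 lower (88.9%), led by Pdk3 (-0.48) and Pdk2 (-0.44), but 2 higher and 1 lower on TPM as deposited. Liver had 1 lower of 7 measured, Dlat (-0.41), kidney 3 lower (33.3%, against 11.5%), led by Pdhx (-0.26) and Dlat (-0.21), cerebellum 1 lower, Pdhb (-0.30), and muscle none.

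Of 5 genes that act with Angptl4 on lipoprotein lipase, all were measured in liver, kidney and heart and 4 elsewhere. In heart the lipase gene Lpl itself went from a median of 489.8 to 649 TPM (0.28 ± 0.08, adjusted p = 0.0059) and the lipase maturation factor Lmf1 was higher too (0.13). In liver the lipase anchor Gpihbp1 was higher (0.77) and Lmf1 lower (-0.69). Within the replicate numbers Gpihbp1 was 1.11, 1.36 and -0.15 and Lmf1 -1.17, -1.07 and 0.17, so the third number went the other way for both. Both Gpihbp1 (-0.32) and Lmf1 (-0.20) were lower in lung, and neither passed on TPM as deposited, where 2 others were higher. Muscle and cerebellum had none.

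The time of day was tested by a 24-hour cosine curve per gene, tissue and treatment. The clock genes served as reference: Arntl peaked between 21:45 and 0:21 and Dbp between 8:05 and 10:34 in the 5 tissues other than cerebellum. In normoxia 4 of 54 tests of the 9 genes passed, whereas 1 did on TPM as deposited and 0, 2 and 1 did without replicate numbers 1, 2 and 3. Pdk4 in liver had an amplitude of 1.02 ± 0.22 (log2, SE) with its peak at 22:33 (adjusted p = 0.0066), and Pdk4 in heart 0.49 ± 0.12 at 2:21 (adjusted p = 0.040). Cpt1a passed in kidney with 0.36 ± 0.09 at 7:46 (adjusted p = 0.026) and in muscle with 0.31 ± 0.06 at 6:13 (adjusted p = 0.0015). After IH 3 of 54 passed: Cpt1a in muscle with 0.30 ± 0.06 at 6:45 (adjusted p = 0.0011), Pdk4 in muscle with 0.72 ± 0.17 at 3:03 (adjusted p = 0.011) and Acadm in lung with 0.16 ± 0.04 at 21:05 (adjusted p = 0.028). Of all genes, 5.73% were rhythmic in liver in normoxia and 7.53% after IH, with 4.09% and 8.56% in lung, 11.2% and 10% in kidney, 5.7% and 12% in muscle, 1.57% and 2.28% in heart, and 0.00672% and 0.0403% in cerebellum. A rank test for rhythm (JTK) on TPM as deposited passed 3 and 2, and 15 normoxia and 13 IH tests had an unadjusted p under 0.05. For these JTK and unadjusted counts no share over all genes is given, so they say nothing particular to the 9 genes.

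In liver, mean Pdk4 ran from 0.865 ± 0.174 TPM (SD, n = 3) at 10:30 to 6.22 ± 4.07 at 22:30 in normoxia, 7.19-fold. After IH it was 0.719 ± 0.158 at 10:30 and 4.59 ± 0.395 at 22:30. Its highest mean after IH, 7.47 TPM at 13:30, came from the library that stood apart, with 20.7 TPM against 0.814 and 0.922 in the others. In muscle, Pdk4 ran from 38.1 ± 7.10 TPM at 16:30 to 109.8 ± 34.3 at 4:30 in normoxia, and from 30.8 ± 2.44 to 143 ± 32.3 at the same times after IH. In heart the highest mean was at 4:30 in normoxia, with 63.1 ± 23.1 TPM, and the lowest at 10:30, with 24.9 ± 5.73. Cpt1a in kidney ran from 87.8 ± 2.91 TPM at 22:30 to 161 ± 19.3 at 7:30 in normoxia. In muscle Cpt1a was 5.33 ± 0.232 TPM at 19:30 and 8.90 ± 1.98 at 7:30. Angptl4 did not pass in any group (lowest adjusted p = 0.11).

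**Figure D4:**
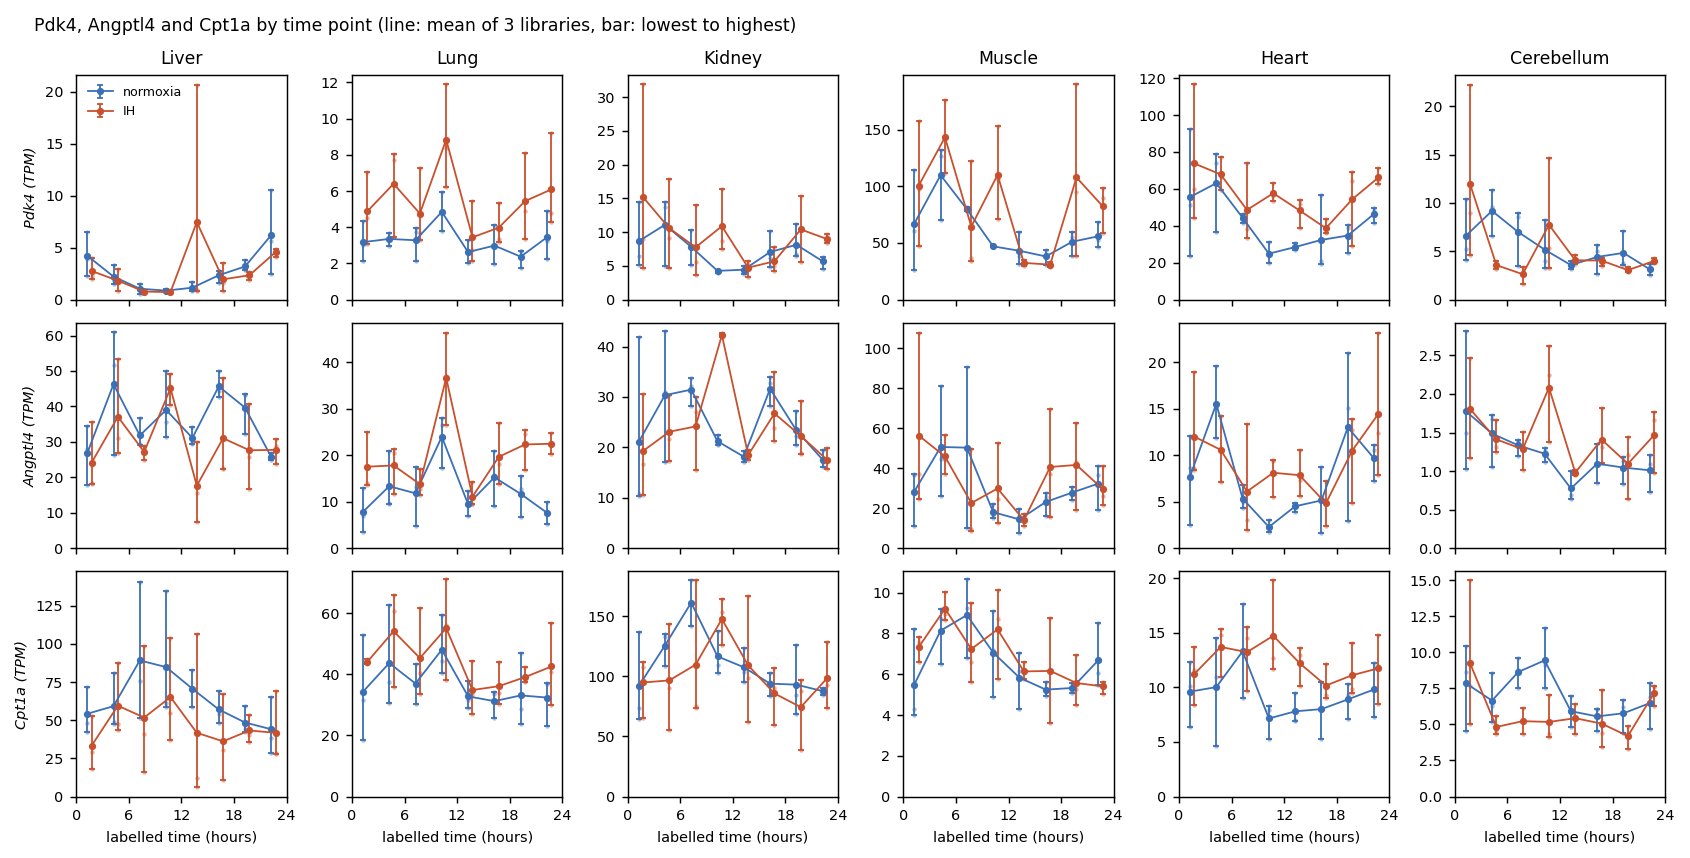
Pdk4, Angptl4 and Cpt1a in TPM against labelled time in hours in the 6 tissues, with normoxia in blue and IH in orange. Lines join the means of 3 libraries and bars span the lowest to the highest, and Pdk4 in normoxia liver is lowest at 10:30 and highest at 22:30 while the tall IH bar at 13:30 is 1 library at 20.7 TPM.

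No difference in rhythm between normoxia and IH passed for any of the 9 genes in limma's test of the curve terms, and the share over all genes was 0% in each of the 6 tissues. At an unadjusted p under 0.05 there were 3 of 54, Acadvl (p = 0.014), Acadm (p = 0.015) and Acadl (p = 0.018), all in muscle. These 3 dehydrogenases peaked at 9:01, 8:09 and 9:11 in normoxia and at 22:14, 20:31 and 19:13 after IH, with amplitudes of 0.14 to 0.22 and 0.04 to 0.07 on the log2 scale, and none was rhythmic past the threshold in either group. The lowest adjusted p over the 54 tests was 0.83.

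Pdk4 and Angptl4 respond to the same fasting signals and were compared across the 24 libraries of each of the 12 groups, on the scaled log2 scale with 100000 permutations and adjustment over 12. Pearson's r was positive in the 10 groups outside liver, from 0.43 in kidney after IH (adjusted p = 0.039) to 0.78 in cerebellum after IH (adjusted p = 0.0010). Spearman's rho passed in the 8 others and missed in kidney after IH (0.37, adjusted p = 0.095) and cerebellum after IH (0.39, adjusted p = 0.076). The cerebellum value fell to r = 0.29 without the 2 libraries farthest from the median of Pdk4, and so rests on them. Heart had r = 0.69 in normoxia (rho = 0.72) and 0.63 after IH (rho = 0.68), and lung 0.60 (rho = 0.56) and 0.70 (rho = 0.71). Muscle had 0.56 (rho = 0.55) and 0.60 (rho = 0.60), kidney in normoxia 0.55 (rho = 0.48) and cerebellum in normoxia 0.61 (rho = 0.53). Without the 2 farthest libraries, r in these 8 groups was 0.40 to 0.72. Liver differed, with r = -0.14 in normoxia (adjusted p = 0.52, rho = -0.06) and -0.43 after IH (adjusted p = 0.039, rho = -0.25 with adjusted p = 0.26), and the second was -0.23 without the 2 farthest libraries. Within replicate numbers r was positive in each of the 10 groups outside liver, from 0.04 to 0.97 with 8 libraries each. The 0.97 was number 3 of cerebellum after IH, which holds the library at 1:30 with 22.2 TPM of Pdk4. With the mean of each time point taken out, r was 0.23 in muscle and 0.34 in cerebellum in normoxia, and from 0.51 to 0.81 in the 8 other groups outside liver. Among these, the 0.79 of cerebellum after IH includes the same library.

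**Figure D5:**
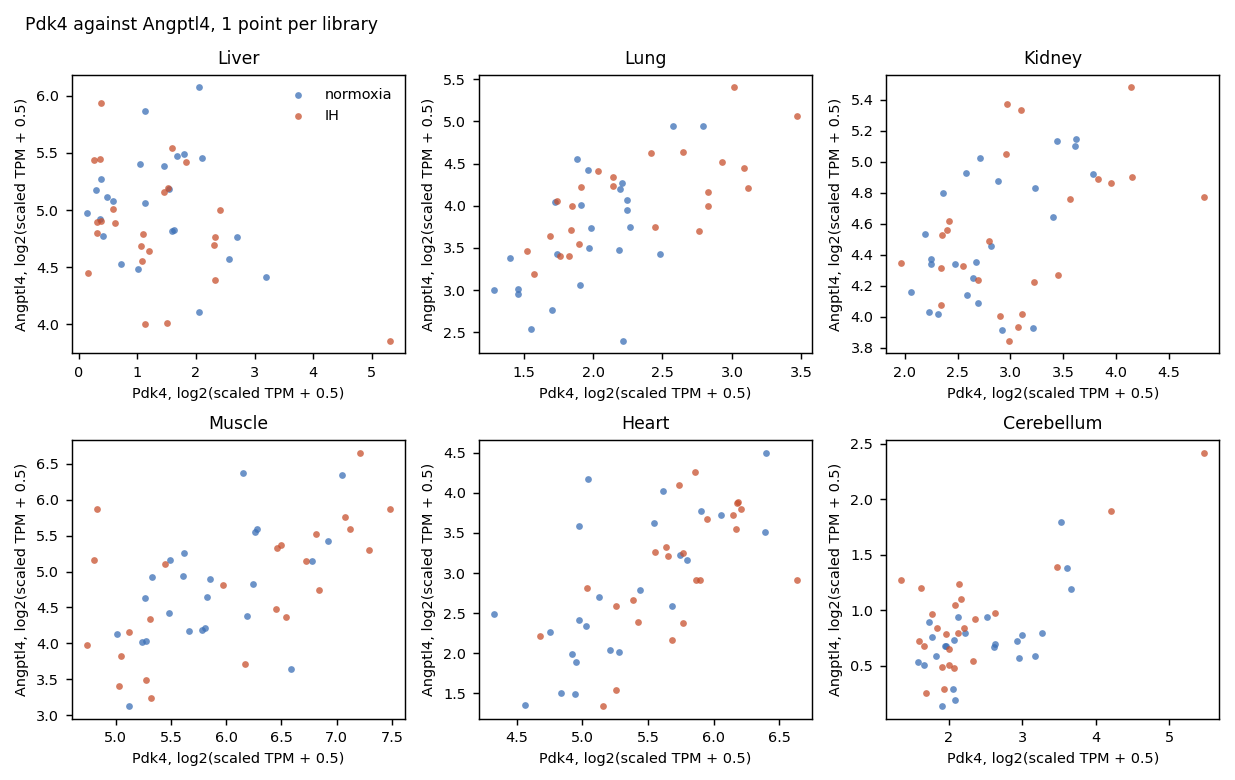
Angptl4 against Pdk4 on the log2 scale of scaled TPM with 0.5 added, 1 point per library, per tissue, with normoxia in blue and IH in orange. Points rise together in lung, muscle and heart (r from 0.56 to 0.70), and in liver and cerebellum after IH the library farthest to the right stands alone.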

How the data were processed

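RNA-seq of 6 tissues was described by the authors as poly(A)-selected and directional, sequenced on a NovaSeq and quantified with Kallisto on Ensembl transcripts (bcl2fastq, FastQC 0.11.3, DESeq2 and mm10 are in the submitters' processing notes). The deposited values are TPM per gene, normalized by the authors to transcript length and library. Each library sums to between 989211 and 999188 TPM, 0 pairs of libraries were identical, and depth is not known.

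Within a tissue, TPM was divided by median-of-ratios size factors, 0.5 was added as pseudocount before log2, and only genes averaging 1 TPM or more were tested. Treatment, 24-hour cosine terms and tissue interactions were fitted over all genes with limma 3.58.1 (intensity trend) in R 4.3.3. All p-values are 2-sided and Benjamini-Hochberg adjusted, over genes or over the 12 groups for correlations, with a threshold of 0.05 (and 1.5-fold). The fits judge a change against the spread between libraries, which in the treatment fit also holds the differences between time points. Other values used Python 3.11.15, numpy 2.4.6, scipy 1.17.1, pandas 2.3.3 and matplotlib 3.10.9. The fits were tested on simulated data. Lists name the 2 genes of largest change per tissue among those called, and the 3 genes of most similar pattern were found by Pearson r. The genes and lists were chosen with earlier results of these data known. Alternatives were pseudocounts of 0.1 and 1, a minimum of 5 TPM or none, unscaled TPM, time and genes-detected terms, a replicate block, a JTK test, and leaving out replicates or libraries. The marker term and 2 left-out libraries (heart and lung) were added after seeing the data. DESeq2 was not run because counts were not used here. Some genes that the naming rule selects are not reported here.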

Additional observations from a re-analysis of the deposited data

Results flagged for a closer look

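The response to IH differed between the 6 tissues for 7 of the 9 genes by an interaction test in limma, which is what marked them for a second look. The adjusted p was 1.1e-04 for Cpt1a, 5.6e-05 for Cpt1b, 7.7e-06 for Cpt2, 4.3e-04 for Acadm, 1.1e-05 for Acadl, 4.6e-06 for Acadvl and 4.5e-07 for Hadha. Over all genes tested 88.3% passed the same test. The log2 change of Hadha ran from -0.37 in liver to 0.36 in heart, and that of Cpt1b from -0.29 in cerebellum to 0.98 in lung.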

How the results depend on the processing

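Of 652 recomputed log2 changes, 576 kept their call, 42 no longer passed, 23 newly passed and 11 reversed. Among the 576, 32 changed sign but passed in neither setting. With the genes-detected term, 4 genes passed in kidney, 0 in heart and 1 in cerebellum, where the time term gave 1 and the marker term 2. Over all genes, the genes-detected term gave 3107 of 12902 in kidney, 257 of 12779 in heart and 1498 of 14892 in cerebellum. There 2481 passed with the time term and 3309 with the marker term. The genes-detected term reversed Cpt1a (0.43), Acadvl (0.0040) and Hadha (0.15) in lung and Cpt1b (-0.14), Acadm (-0.0040) and Hadha (-0.047) in heart. Unscaled TPM reversed Cpt1a (0.27), Acadm (0.20) and Hadha (0.077) in lung, and rhythms in normoxia fell to 1. Over all genes, rhythms in normoxia fell to 358 in liver, 336 in lung, 419 in kidney, 242 in muscle and 86 in heart. They rose to 160 in cerebellum. The marker term gave -0.0081 for Pdk4 in lung. The causes were not tested. Leaving out a replicate number gave 0 to 4 genes in liver, 0 to 1 in kidney, 2 to 4 in heart, 0 to 4 in cerebellum, 0 to 2 rhythms in normoxia and 6 to 9 related groups of Pdk4 and Angptl4. Over all genes it gave 105 to 4701 in liver, 2024 to 2556 in kidney, 3050 to 5673 in heart and 47 to 5219 in cerebellum. Rhythms in normoxia over all genes were 304 to 373 in liver, 169 to 337 in lung and 256 to 1608 in kidney. They were 262 to 351 in muscle, 53 to 134 in heart and 0 to 463 in cerebellum. The same omissions gave -0.26 to 0.26 for Cpt1a in lung and r from -0.65 to 0.030 in liver after IH. In heart each of the 3 omissions cut the count from 7, to 2, 4 and 3 without numbers 1, 2 and 3. The cerebellum count was 4 without number 3, and 4 without the IH library of replicate 3 at 1:30. Of all 14892 cerebellum genes, 5219 and 3644 passed in these fits, against 2234 in the main fit.

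Replicate numbers were not taken as pairs, since in no tissue did all 24 same-numbered libraries of the treatments deviate together with r above 0.1 (22 in liver, 6 in lung, 11 in kidney, 14 in muscle, 10 in heart, 13 in cerebellum). This rule is strict, so missing it does not show that the numbers share nothing, and in liver the median r was 0.32. Averaged over times, all 3 numbers were above 0.1 in muscle alone (0.16, 0.38 and 0.65; liver 0.67, -0.06 and 0.49), where 0 genes passed with or without the block. Numbers matched best with their own for 2 of 3 in liver, 1 in muscle and 0 elsewhere. With the replicate block, 4, 7, 1, 0, 6 and 0 genes passed in liver, lung, kidney, muscle, heart and cerebellum. Over all genes 3640 of 11334, 10894 of 15426, 2574 of 12902, 1748 of 12824, 5829 of 12779 and 2015 of 14892 passed there. The block changed the call of Acadl in heart alone (adjusted p = 0.057) among the 54 changes and gave 5 rhythms in normoxia in place of 4. In the same order of tissues, 1107, 762, 1568, 1036, 220 and 2 of all genes were rhythmic in normoxia with the block. The main fit had 650, 631, 1451, 731, 200 and 1. Without counts, depth cannot be weighed.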

Other observations

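Hadhb, the beta subunit of the trifunctional protein, starts 85 bases from Hadha on the opposite strand (chr5:30155248-30184593) and was singled out for that position after values were seen. The subunits did not show the same log2 changes after IH. Hadha was 0.36 (adjusted p = 7.6e-04) in heart and Hadhb 0.11 (adjusted p = 0.25), and in kidney Hadha was 0.05 (adjusted p = 0.66) and Hadhb 0.29 (adjusted p = 9.2e-04), while both were lower in lung (-0.23 and -0.48 with the scaling). In liver Hadha was -0.37 and Hadhb -0.27 (adjusted p = 0.068). The difference between the subunits was not tested.

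The spread of the 9 genes between libraries of a group differed. The SD on the log2 scale had a median over the 12 groups of 0.50 for Pdk4 and 0.46 for Angptl4, and of 0.22 to 0.31 for the other 7. For Cpt1a, Cpt1b, Hadha and Pdk4 the group with the widest spread was liver after IH, and for Cpt2, Acadm, Acadl and Acadvl it was cerebellum after IH, the groups that hold the libraries rich in Gm19220. In those libraries Cpt1b was 42.7 TPM (liver) and 47.0 TPM (cerebellum), and Acadm 171 and 167 TPM. Angptl4 varied most in muscle after IH, with an SD of 0.83.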
